A study of Mus musculus with 24 samples.

Results

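The DNA replication and repair genes are 50 S phase genes taken by name, and all 50 were found among the 23366 genes of the deposited tables. All 50 also passed the filter on low counts in every fit described here. They were followed in 24 RNA-seq libraries of CD8+ T cells from C57BL/6 mice, in 8 groups of 3, each library made from 1000 sorted cells. Naive CD62Lhi CD44- cells from spleen and lymph nodes had been stimulated with plate-bound antibodies against CD3 and CD28, both at 1 µg/ml. All cells carried Nr3c1 fl/fl, a floxed gene for the glucocorticoid receptor, with no Cre in WT cells and with E8i-Cre, a Cre active in the CD8 lineage, in cKO cells. At day 3, WT and cKO cells had been cultured without addition (Ctrl) or with the synthetic glucocorticoid dexamethasone (Dex) at 10 nM. At day 9, WT cells had been cultured without addition (Ctrl), with Dex, with the cytokine IL27 at 25 ng/ml, or with both (Dex+IL27, labelled combo). The day 9 cells had been stimulated for 3 days, rested for 3 days in IL2 at 5 ng/ml, and restimulated for 3 days with the same additions. The labels do not say that the 3 libraries of a group came from separate animals or cultures, so the p-values measure only the spread between these libraries.

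Replication origins are licensed in G1 phase, when Cdc6 and Cdt1 load the ring-shaped helicase built of the Mcm2, Mcm3, Mcm4, Mcm5, Mcm6 and Mcm7 proteins onto DNA, and geminin (Gmnn) blocks Cdt1 after S phase has begun. In S phase Mcm10 and the GINS proteins take part in switching the helicase on, polymerase alpha and primase lay down primers, and polymerases delta and epsilon copy the strands. The clamp loader RFC places the sliding clamp PCNA behind them, and nucleases, a ligase, histone chaperones and a DNA methyltransferase finish the new strands. Many of these genes are known targets of the E2F transcription factors, and their mRNA is abundant in dividing T cells.

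The libraries held totals of 14221883 to 19018440 estimated counts. The label of the deleted gene was borne out at day 3, with Nr3c1 between 14.9 and 21.4 CPM in the 6 WT libraries and between 5.32 and 8.2 CPM in the 6 cKO libraries. Tsc22d3, a glucocorticoid target, rose with Dex at day 3 in WT cells (log2 fold change 1.73 ± 0.11, SE) and measured 0.24 ± 0.11 (adjusted p = 1) in cKO cells. At day 9 Tsc22d3 rose with Dex (4.43) and also with IL27 alone (2.36). Fkbp5, a second Dex response gene, rose there with Dex (1.78) and measured -0.0088 with IL27. All 5 CD8 T cell markers were detected in all groups, and their summed level was 1159 to 1765 CPM per library. Of the B cell markers Pax5 was at 0 in all libraries, Ms4a1 and Cd79a stayed below 1 CPM in all groups and Cd79b did not, and the list summed to 6.38 to 20.9 CPM per library. The platelet markers Pf4 and Ppbp were at 0 in all libraries.

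At day 9 the replication genes were lower in all 3 treated groups than in untreated cells. With Dex, 44 of the 50 members fell, with IL27 48 fell, and with Dex+IL27 47 fell. A member counts as changed where edgeR's quasi-likelihood F test gave an adjusted p under 0.05, which 27.4% of the 12320 genes tested met as a fall with Dex, 28.1% with IL27 and 32.6% with Dex+IL27. No member rose with Dex or with IL27, where 28.2% and 29.3% of all genes rose, and E2f2 was the 1 member that rose with Dex+IL27, where 34.3% of all genes rose. The median log2 fold change of the members was -0.78 with Dex, -1.14 with IL27 and -1.45 with Dex+IL27, beside 0.033, 0.035 and 0.05 over all genes tested. Falls of at least 2-fold were met by 11 members with Dex, 33 with IL27 and 38 with Dex+IL27, beside 5.5%, 6.63% and 12.8% of all genes. In such bulk libraries fewer cells in S phase and less of these mRNAs per cell cannot be told apart.

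Levels are given as CPM, counts brought to a common library size by TMM scaling over all 24 libraries. The levels of the 50 members summed to 6746, 7081 and 6806 CPM in the 3 Ctrl libraries of day 9 and to 3805, 4206 and 4055 CPM with Dex. The sums were 3253, 3400 and 3352 CPM with IL27 and 2653, 2694 and 2729 CPM with Dex+IL27. The 4 groups did not overlap, and the mean sums of the treated groups were 58.5%, 48.5% and 39.1% of Ctrl in the same order. Of the single members, 44 had libraries that did not overlap Ctrl and lay below it with Dex, 48 with IL27 and 47 with Dex+IL27, beside 30.6%, 29.8% and 33.8% of all genes. The order Ctrl, Dex, IL27, Dex+IL27 from the highest to the lowest mean was found in 40 of the 50 members.

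Other measures of the libraries moved with these groups. The share of counts assigned to Rn45s, the ribosomal RNA precursor, was 9.11% ± 0.15 in Ctrl, 14.6% ± 0.487 with Dex, 14.1% ± 0.405 with IL27 and 16.04% ± 0.305 with Dex+IL27 (SD, n = 3). The 7 myeloid and dendritic cell markers summed to 7.63 to 8.86 CPM in Ctrl, 25.4 to 26.4 CPM with Dex, 24.8 to 34.1 CPM with IL27 and 31.6 to 37.1 CPM with Dex+IL27, and 3 of them, Lyz2, Csf1r and Itgax, stayed below 1 CPM in all groups. Of the 7, those that rose in all 3 treated groups were Itgam, Cd68 and Zbtb46. The 4 CD4 T cell markers summed to 12.5 to 21.6, 13.6 to 16.3, 19.3 to 22.3 and 13.5 to 15.2 CPM in the same order, while Zbtb7b rose and Cd40lg fell in all 3 treated groups and Cd4 rose with IL27. Of the CD8 T cell markers, Cd3d, Cd3e and Cd3g rose in all 3 treated groups. Cd8a fell with IL27 (log2 fold change -0.57) and with Dex+IL27 (-0.31), and Cd8b1 fell with IL27 (-0.33). The part of these measures in the fall of the replication genes was not tested.

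**Figure D1:**
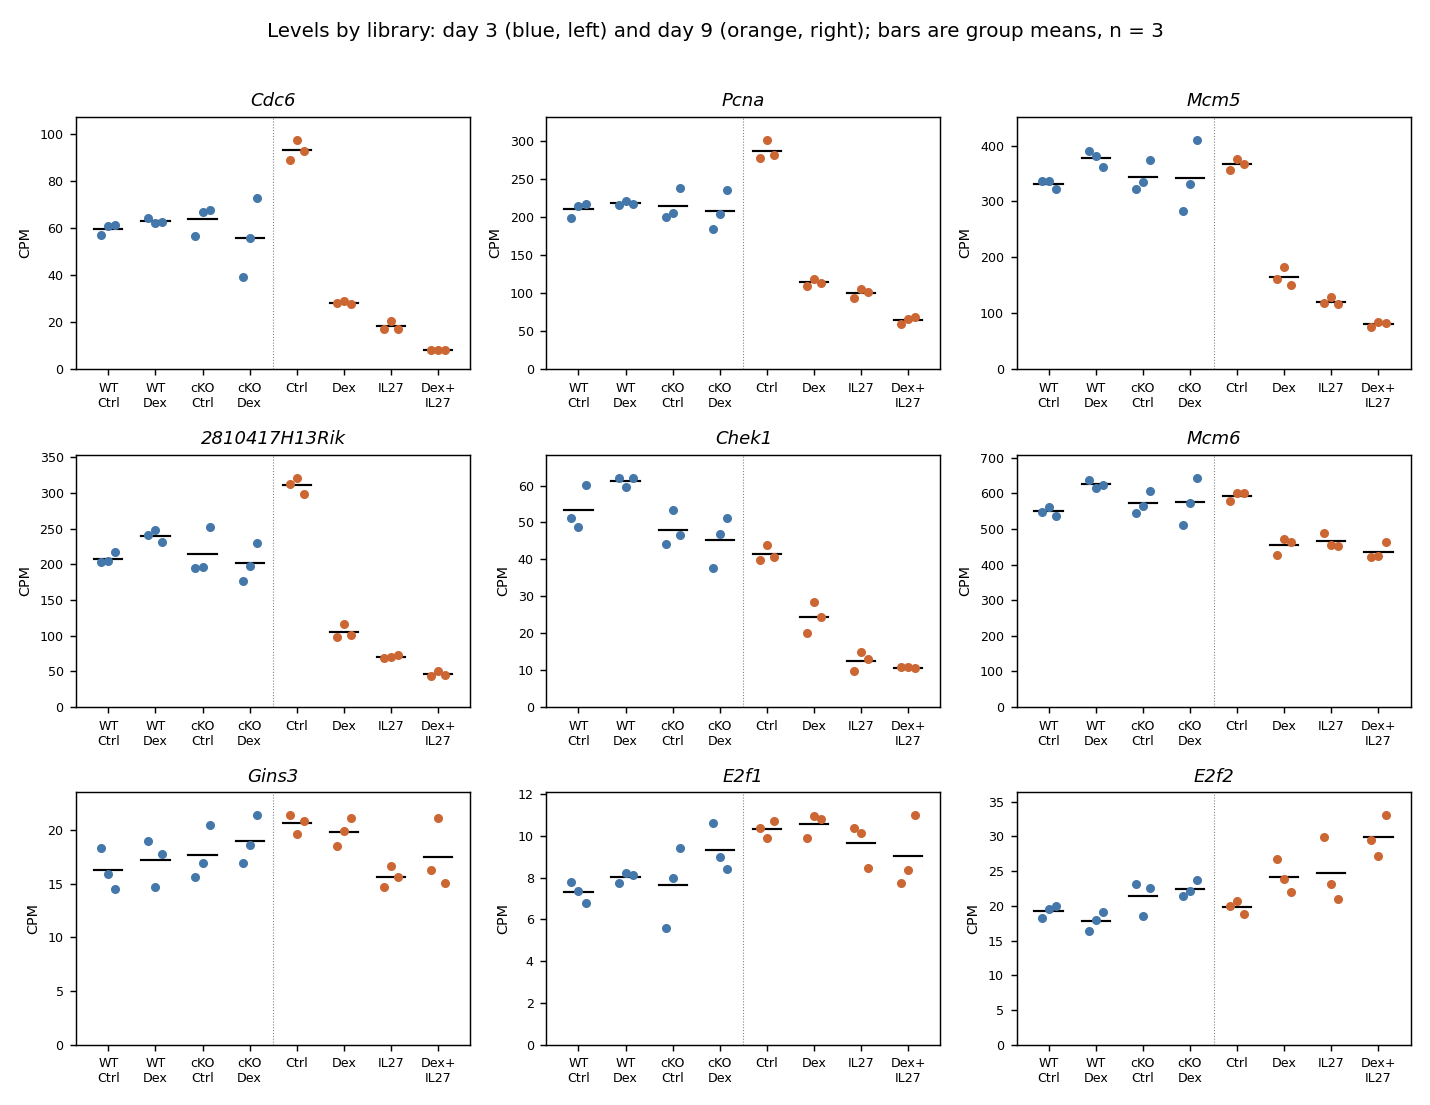
Levels of 9 members in every library as CPM (vertical axes, linear from 0), with the day 3 groups in blue on the left and the day 9 groups in orange on the right; points are libraries and bars are group means (n = 3). Cdc6, Pcna, Mcm5, 2810417H13Rik and Chek1 step down from Ctrl at day 9, while Mcm6, Gins3, E2f1 and E2f2 stay closer to it.

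Promoter sequences were set beside these falls, since many members are known E2F targets. RefSeq promoter windows of the GRCm38.p6 build were found for 40 of the 50 members, with 2810417H13Rik matched under its other name Pclaf. There was none for Mcm4, Gmnn, Gins1, Gins2, Gins4, Pole, Prim2, Rfc2, Exo1 and Tipin. In the 250 bases before the start site, on both strands, at least 1 of the E2F site letters TTTCCCGC, TTTGGCGC, TTTCGCGC and TTTGCCGC was found in 11 of 40 members (27.5%), beside 2.16% of 27025 genes with a window and 3.99% of the 9149 of them tested at day 9. The CCAAT box was found in 26 members (65%, beside 37.5% of all genes and 41.01% of those tested), and the letters TTTGAA of the cell cycle homology region in 6 (15%, beside 18.3% and 12.9%). The palindromic glucocorticoid response element was found in 0, beside 3 of 27025 genes. Letters this rare could hardly be met in 40 members, so the 0 does not show that receptor sites are absent.

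From the members with E2F letters, 3 that fell strongly at day 9 were taken, and 3 that changed less with IL27 and with Dex+IL27. Shown are their 60-base stretches, 5′ to 3′ along the gene's strand, with the matched letters in capitals. They are, in turn, at chr11:98907987-98908046 (plus strand), chr8:75109334-75109393 (plus), chrX:93632260-93632319 (minus), chr1:128359719-128359778 (minus), chr8:95633492-95633551 (plus) and chr5:151651209-151651268 (minus).
Cdc6: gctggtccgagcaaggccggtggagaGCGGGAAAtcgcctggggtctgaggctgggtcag
Mcm5: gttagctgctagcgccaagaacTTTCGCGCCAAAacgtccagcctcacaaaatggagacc
Pola1: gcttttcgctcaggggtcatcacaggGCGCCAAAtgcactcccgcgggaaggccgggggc
Mcm6: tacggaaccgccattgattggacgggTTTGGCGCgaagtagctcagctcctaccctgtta
Gins3: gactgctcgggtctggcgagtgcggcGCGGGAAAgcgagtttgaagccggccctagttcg
Rfc3: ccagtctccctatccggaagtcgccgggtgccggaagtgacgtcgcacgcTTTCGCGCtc

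The match nearest the start began 138 bases before it in Cdc6, 149 in Mcm5 and 138 in Pola1. In Mcm5 2 matches on opposite strands overlap, and the capitals open with the one farther from the start. The nearest match began 47 bases before the start in Mcm6, the only one of the 6 with 3 matches in its window. It began 41 bases before the start in Gins3 and 10 in Rfc3. The letters were thus found both in Cdc6, the member that fell most at day 9, and in Gins3, which did not pass the test with Dex or Dex+IL27. The median log2 fold change over the 11 members with E2F letters was -0.76 with Dex, -1.09 with IL27 and -1.14 with Dex+IL27. Over the 29 without them it was -0.79, -1.13 and -1.37 in the same order. Only these exact letters were searched, so a window without them is not shown to lack an E2F site. A match of letters is a description of the window and does not show that a factor binds there.

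**Figure D2:**
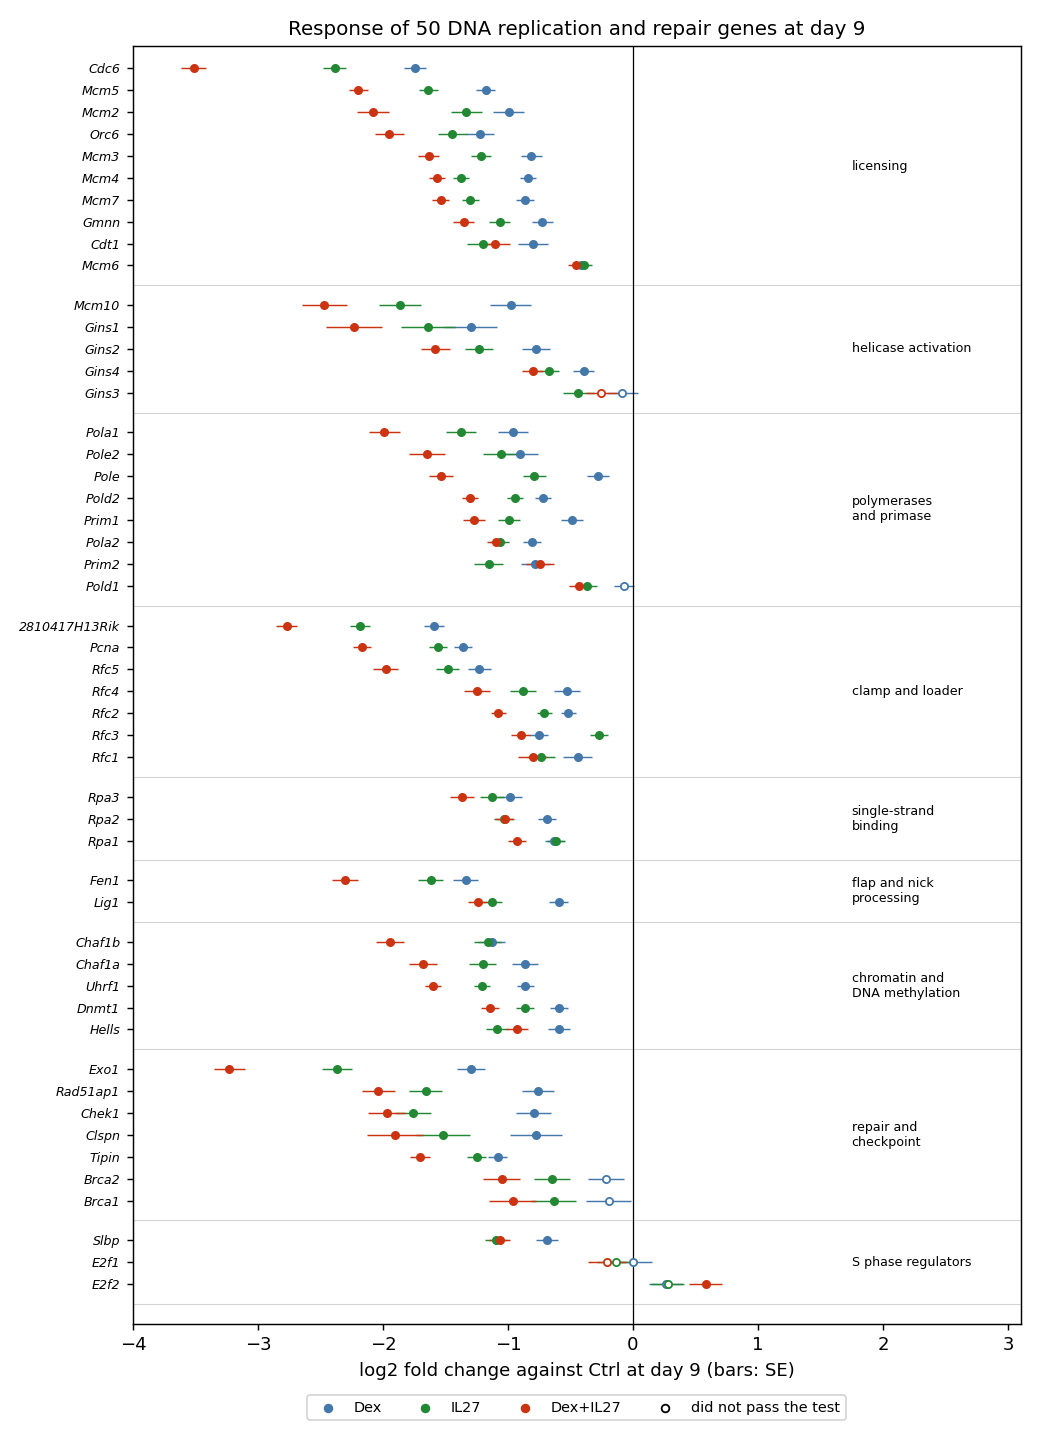
Log2 fold change against Ctrl at day 9 (horizontal axis, bars are SE) for all 50 members, grouped by role, with Dex in blue, IL27 in green and Dex+IL27 in red; open circles did not pass the test. All filled points lie left of 0, down to -3.51 for Cdc6 with Dex+IL27, except that of E2f2 with Dex+IL27 at 0.58.

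All 10 licensing genes fell at day 9 with Dex, with IL27 and with Dex+IL27, with median log2 fold changes of -0.85, -1.32 and -1.60. Cdc6, the loader of the helicase, was the lowest member of all in each comparison. Cdc6 measured 88.6, 97.4 and 92.7 CPM in the Ctrl libraries, 28.2, 29 and 27.6 CPM with Dex, 17, 20.7 and 17.1 CPM with IL27 and 8.27, 8.18 and 8.15 CPM with Dex+IL27. The 4 groups did not overlap, and the 3 Dex+IL27 libraries lay at 8.83% of the Ctrl mean. The log2 fold changes of Cdc6 were -1.75 ± 0.088 (adjusted p = 2.53e-09) with Dex, -2.39 ± 0.091 (adjusted p = 2.39e-10) with IL27 and -3.51 ± 0.099 (adjusted p = 3.52e-12) with Dex+IL27, each ± SE.

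Cdt1, which loads the helicase together with Cdc6, measured 70.1, 83 and 74 CPM in Ctrl, 51.1, 43.7 and 38.2 CPM with Dex, 36.6, 32.8 and 31.9 CPM with IL27 and 38, 30.2 and 38.5 CPM with Dex+IL27. All treated libraries lay below Ctrl, and those of Dex+IL27 overlapped both single treatments. Cdt1 changed by -0.80 ± 0.12 (adjusted p = 5.03e-05), -1.20 ± 0.12 (adjusted p = 9.85e-07) and -1.10 ± 0.12 (adjusted p = 1.19e-06) on the log2 scale in the same order. Gmnn, the inhibitor of Cdt1, measured 104, 99.2 and 102 CPM in Ctrl, 59.1, 66.1 and 63.4 CPM with Dex, 45.8, 52 and 51.9 CPM with IL27 and 43.8, 40.5 and 36.2 CPM with Dex+IL27. Its 4 groups stepped down without overlap, with changes of -0.72 ± 0.084 (adjusted p = 4.1e-06), -1.07 ± 0.085 (adjusted p = 1.11e-07) and -1.36 ± 0.086 (adjusted p = 3.99e-09). The inhibitor and its target thus both fell.

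The 6 genes of the MCM ring fell by different amounts. Mcm5 measured 357, 375 and 366 CPM in Ctrl, 162, 183 and 150.5 CPM with Dex, 118, 128 and 116 CPM with IL27 and 75.5, 84.2 and 82.4 CPM with Dex+IL27. Its groups did not overlap, with log2 fold changes of -1.18 ± 0.076 (adjusted p = 1.86e-08), -1.64 ± 0.077 (adjusted p = 1.73e-09) and -2.20 ± 0.079 (adjusted p = 5.78e-11). Mcm6 measured 578, 602 and 599.98 CPM in Ctrl, 428, 472 and 462 CPM with Dex, 489, 455 and 451 CPM with IL27 and 422, 423 and 462 CPM with Dex+IL27. All treated libraries of Mcm6 lay below Ctrl, but the treated groups overlapped each other. Mcm6 was the licensing gene that fell least in each comparison, with -0.41 ± 0.059 (adjusted p = 2.88e-05), -0.39 ± 0.059 (adjusted p = 4.84e-05) and -0.46 ± 0.059 (adjusted p = 6.05e-06).

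On the authors' FPKM scale, which allows for gene length, Mcm6 was the most abundant ring gene in all 8 groups. The ratio of Mcm6 to Mcm5 was 1.91 ± 0.0198 (SD, n = 3) in Ctrl at day 9 and lay between 1.95 and 2.01 in the group means at day 3. It was 3.26 ± 0.318 with Dex, 4.54 ± 0.347 with IL27 and 6.38 ± 0.388 with Dex+IL27. The 4 groups of day 9 did not overlap in this ratio, which was chosen after the values had been seen and is given as a description. Over the whole ring the most abundant gene stood 2.44 times above the least abundant in Ctrl, and 3.64, 4.7 and 7.49 times above it in the treated groups.

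**Figure D3:**
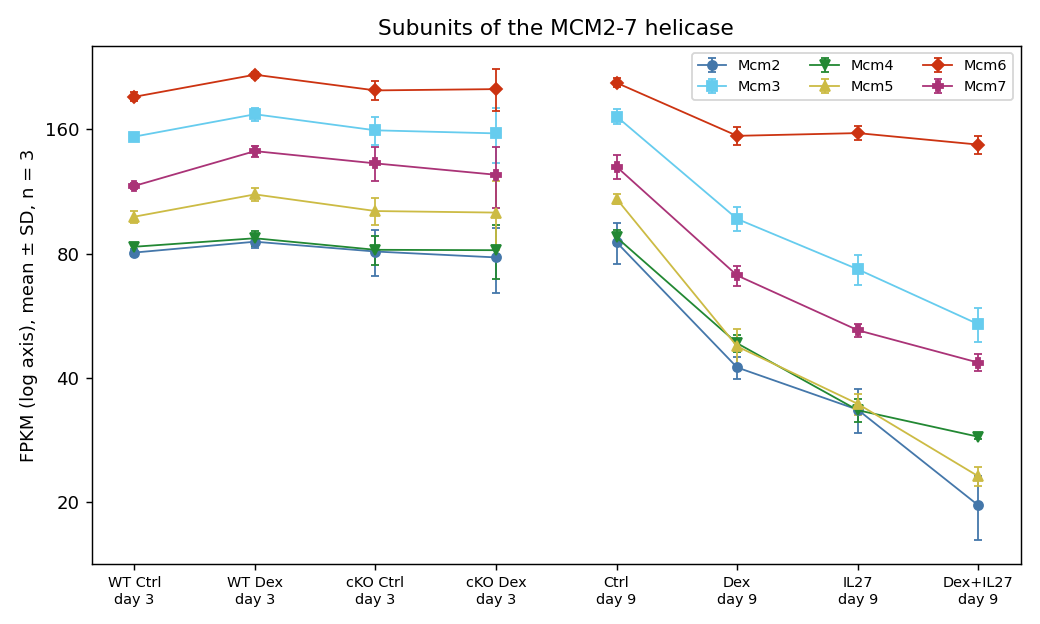
FPKM of the 6 genes of the MCM helicase ring (vertical log axis, mean ± SD, n = 3) in the 4 groups of day 3 and the 4 groups of day 9. Mcm6 stays near the top at day 9, at 154, 157 and 147 FPKM in the treated groups, while Mcm2 and Mcm5 fall to 19.6 and 23.1 FPKM with Dex+IL27.

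Of the 5 genes of helicase activation, 4 fell with Dex, 5 with IL27 and 4 with Dex+IL27. Gins1, a subunit of the GINS complex, was the lowest with Dex (-1.30 ± 0.21, adjusted p = 0.000108), and Mcm10 was the lowest with IL27 (-1.86 ± 0.17, adjusted p = 3.95e-07) and with Dex+IL27 (-2.47 ± 0.18, adjusted p = 1.38e-08). Gins1 had low levels, at 14.1, 17.6 and 16.3 CPM in Ctrl and 4.66, 8.04 and 7.19 CPM with Dex. Gins3, another GINS subunit, was the highest of the 5 in all 3 comparisons. Gins3 measured 21.4, 19.7 and 20.9 CPM in Ctrl, 18.5, 19.9 and 21.1 CPM with Dex, 14.7, 16.7 and 15.6 CPM with IL27 and 16.3, 21.1 and 15.1 CPM with Dex+IL27. Its libraries overlapped between Ctrl and Dex and between Ctrl and Dex+IL27, with log2 fold changes of -0.086 ± 0.12 (adjusted p = 0.58) and -0.25 ± 0.12 (adjusted p = 0.0844), and it fell with IL27, at -0.44 ± 0.12 (adjusted p = 0.00736). In FPKM Gins3 was the least abundant GINS gene in Ctrl and Gins1 the least abundant in the 3 treated groups.

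Among the 8 genes of polymerases and primase, 7 fell with Dex and all 8 fell with IL27 and with Dex+IL27. Pola1, the catalytic subunit of polymerase alpha, was the lowest in each comparison, with -0.96 ± 0.12 (adjusted p = 7.16e-06), -1.38 ± 0.12 (adjusted p = 2.4e-07) and -1.99 ± 0.12 (adjusted p = 3.32e-09). Pold1, the catalytic subunit of polymerase delta, was the highest. It measured 156, 153 and 144 CPM in Ctrl and 133, 161 and 146 CPM with Dex, which overlapped, and 119.7, 118 and 122 CPM with IL27 and 109, 126 and 105 CPM with Dex+IL27, which lay below Ctrl. Its log2 fold changes were -0.069 ± 0.08 (adjusted p = 0.485), -0.37 ± 0.08 (adjusted p = 0.00113) and -0.43 ± 0.08 (adjusted p = 0.000245). Pole, the catalytic subunit of polymerase epsilon, changed by -0.28 ± 0.09 (adjusted p = 0.0165) with Dex, by -0.79 ± 0.091 (adjusted p = 3.75e-06) with IL27 and by -1.54 ± 0.095 (adjusted p = 3.21e-09) with Dex+IL27.

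All 7 genes of the clamp and its loader fell in each of the 3 comparisons. Pcna, the clamp, measured 278, 302 and 282 CPM in Ctrl, 110.2, 119 and 114 CPM with Dex, 93.3, 105 and 102 CPM with IL27 and 59.4, 65.6 and 69 CPM with Dex+IL27. The 4 groups did not overlap, and Pcna changed by -1.36 ± 0.072 (adjusted p = 3.96e-09), -1.56 ± 0.072 (adjusted p = 1.73e-09) and -2.17 ± 0.074 (adjusted p = 3.22e-11). 2810417H13Rik, the PCNA clamp associated factor, was the lowest of the role in each comparison and measured 313, 322 and 299 CPM in Ctrl, 98.1, 116 and 102 CPM with Dex, 68.5, 69.5 and 73.3 CPM with IL27 and 43, 51.1 and 44.2 CPM with Dex+IL27. These groups did not overlap either, and the changes were -1.59 ± 0.08 (adjusted p = 2.52e-09), -2.18 ± 0.082 (adjusted p = 2.28e-10) and -2.77 ± 0.084 (adjusted p = 8.99e-12).

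Rfc1, the large subunit of the clamp loader, fell less. Rfc1 measured 103, 88.6 and 90.8 CPM in Ctrl, 63.5, 75.6 and 73 CPM with Dex, 56.8, 57.5 and 59.9 CPM with IL27 and 49.3, 67.2 and 47.2 CPM with Dex+IL27. The treated libraries lay below Ctrl, and those of Dex+IL27 overlapped both single treatments. Its log2 fold changes were -0.44 ± 0.11 (adjusted p = 0.00421), -0.74 ± 0.12 (adjusted p = 6.69e-05) and -0.80 ± 0.12 (adjusted p = 1.93e-05), the first and last being the highest of the role. Rfc3, a small subunit, was the highest of the role with IL27. It measured 142, 143 and 138 CPM in Ctrl, 81.1, 88.1 and 86.4 CPM with Dex, 112, 119 and 128 CPM with IL27 and 74.1, 84 and 71 CPM with Dex+IL27. For Rfc3 the IL27 libraries lay above both Dex and Dex+IL27, and the changes against Ctrl were -0.76 ± 0.075 (adjusted p = 8.77e-07), -0.27 ± 0.074 (adjusted p = 0.00564) and -0.90 ± 0.075 (adjusted p = 6.44e-08).

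The 3 subunits of the single-strand binding protein RPA fell in every comparison, from -0.63 ± 0.074 for Rpa1 to -0.99 ± 0.097 for Rpa3 with Dex, from -0.62 ± 0.074 to -1.13 ± 0.097 with IL27 and from -0.93 ± 0.074 to -1.37 ± 0.098 with Dex+IL27. Fen1, the flap nuclease that trims Okazaki fragments, changed by -1.34 ± 0.099 (adjusted p = 5.62e-08), -1.62 ± 0.10 (adjusted p = 1.41e-08) and -2.30 ± 0.10 (adjusted p = 2.61e-10). Lig1, the ligase that seals them, changed by -0.59 ± 0.078 (adjusted p = 1.35e-05), -1.13 ± 0.079 (adjusted p = 3.93e-08) and -1.24 ± 0.08 (adjusted p = 4.37e-09).

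All 5 genes of chromatin assembly and DNA methylation fell in each comparison. Dnmt1, the maintenance DNA methyltransferase, measured 239.6, 237 and 247 CPM in Ctrl, 153, 171 and 165 CPM with Dex, 127, 145 and 137 CPM with IL27 and 114, 116 and 101 CPM with Dex+IL27. The 4 groups stepped down without overlap, with changes of -0.59 ± 0.071 (adjusted p = 5.34e-06), -0.86 ± 0.071 (adjusted p = 1.56e-07) and -1.14 ± 0.072 (adjusted p = 3.64e-09). The lowest of the role was Chaf1b, a subunit of the histone chaperone CAF-1, with Dex (-1.13 ± 0.11) and with Dex+IL27 (-1.94 ± 0.11), and Uhrf1, which recruits Dnmt1, with IL27 (-1.21 ± 0.066). The chromatin remodeler Hells was the highest with Dex (-0.59 ± 0.085) and with Dex+IL27 (-0.93 ± 0.086), and Dnmt1 with IL27.

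Of the 7 genes of repair and checkpoint, 5 fell with Dex and all 7 with IL27 and with Dex+IL27. Exo1, a nuclease of mismatch repair and end resection, was the lowest, at 56.4, 52.9 and 50.1 CPM in Ctrl, 20.9, 22.7 and 22.5 CPM with Dex, 10.8, 9.49 and 11.4 CPM with IL27 and 5.65, 4.78 and 6.68 CPM with Dex+IL27. The groups of Exo1 did not overlap and its changes were -1.30 ± 0.11 (adjusted p = 2.29e-07), -2.37 ± 0.12 (adjusted p = 2.61e-09) and -3.23 ± 0.13 (adjusted p = 1.04e-10). Chek1, the kinase of the replication checkpoint, measured 39.8, 43.9 and 40.8 CPM in Ctrl, 20.2, 28.5 and 24.5 CPM with Dex, 9.86, 14.8 and 13.1 CPM with IL27 and 10.7, 10.9 and 10.5 CPM with Dex+IL27. The Dex libraries of Chek1 lay between Ctrl and the other 2 groups, which overlapped, and the changes were -0.79 ± 0.14 (adjusted p = 0.000203), -1.76 ± 0.15 (adjusted p = 1.56e-07) and -1.97 ± 0.15 (adjusted p = 1.99e-08).

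The 2 repair genes that did not pass the test with Dex were Brca1 and Brca2, which act in homologous recombination. Brca1 was the highest of the role in all 3 comparisons and measured 18.8, 22 and 23.3 CPM in Ctrl, 15.3, 22 and 19.8 CPM with Dex, 13.2, 14.6 and 14.5 CPM with IL27 and 10.2, 14.8 and 8.27 CPM with Dex+IL27. Its Ctrl and Dex libraries overlapped, with changes of -0.19 ± 0.18 (adjusted p = 0.377), -0.63 ± 0.18 (adjusted p = 0.00764) and -0.96 ± 0.18 (adjusted p = 0.000294). For Brca2 the change with Dex was -0.22 ± 0.14 (adjusted p = 0.212), and it changed by -0.65 ± 0.15 (adjusted p = 0.00143) with IL27 and by -1.05 ± 0.15 (adjusted p = 1.64e-05) with Dex+IL27.

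The 3 S phase regulators split. Slbp, which binds the stem-loop of histone mRNA, measured 155, 184 and 164 CPM in Ctrl, 105, 110.02 and 104 CPM with Dex, 78.4, 75.8 and 87.8 CPM with IL27 and 86.2, 72.9 and 83.1 CPM with Dex+IL27. Its treated libraries lay below Ctrl, with IL27 and Dex+IL27 overlapping, and it changed by -0.69 ± 0.086 (adjusted p = 8.64e-06), -1.09 ± 0.087 (adjusted p = 1.11e-07) and -1.07 ± 0.087 (adjusted p = 4.87e-08). The activator E2f1, in FPKM among the 4 least abundant members in Ctrl, measured 10.4, 9.92 and 10.7 CPM in Ctrl, 9.9, 11 and 10.8 CPM with Dex, 10.4, 10.1 and 8.45 CPM with IL27 and 7.75, 8.36 and 11 CPM with Dex+IL27. All 4 groups of E2f1 overlapped, and its log2 fold changes of 0.00081 ± 0.15 (adjusted p = 0.997), -0.14 ± 0.15 (adjusted p = 0.459) and -0.21 ± 0.15 (adjusted p = 0.24) did not pass the test.

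E2f2, a second activator, was the highest member of all at day 9 and measured 19.9, 20.7 and 18.8 CPM in Ctrl, 26.7, 23.9 and 22 CPM with Dex, 29.9, 23.1 and 21 CPM with IL27 and 29.5, 27.2 and 33 CPM with Dex+IL27. All treated libraries lay above the 3 Ctrl libraries, and the IL27 libraries overlapped both other treated groups. The change of E2f2 was 0.26 ± 0.13 (adjusted p = 0.108) with Dex and 0.28 ± 0.13 (adjusted p = 0.0838) with IL27, neither of which passed the test, and it rose by 0.58 ± 0.13 (adjusted p = 0.00113) with Dex+IL27. Neither E2f1 nor E2f2 passed the test as a fall in any of the 3 comparisons.

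Adding IL27 to Dex lowered 43 of the 50 members further and raised none, beside 17.1% and 14.9% of all genes, with a median log2 fold change of -0.73 beside 0.0034 over all genes. A further fall of at least 2-fold was met by 11 members, beside 3.47% of all genes. The lowest by role were Cdc6 (-1.77 ± 0.098), Mcm10 (-1.49 ± 0.18), Pole (-1.26 ± 0.095), 2810417H13Rik (-1.18 ± 0.082), Rpa3 (-0.38 ± 0.099), Fen1 (-0.96 ± 0.10), Chaf1a (-0.81 ± 0.11), Exo1 (-1.93 ± 0.13) and Slbp (-0.38 ± 0.087). The highest were Mcm6 (-0.044), Gins3 (-0.17), Prim2 (0.036), Rfc3 (-0.14), Rpa1 (-0.30), Lig1 (-0.65), Hells (-0.33), Tipin (-0.62) and E2f2 (0.32), of which Mcm6, Gins3, Prim2, Rfc3 and E2f2 did not pass the test. Of the other genes followed throughout, Pcna changed by -0.81 ± 0.073, Mcm5 by -1.02 ± 0.077, Gmnn by -0.63 ± 0.086, Rfc1 by -0.36 ± 0.12, Dnmt1 by -0.55 ± 0.071 and Chek1 by -1.18 ± 0.15, while Cdt1 (-0.30 ± 0.12, adjusted p = 0.0714) and E2f1 (-0.21 ± 0.15, adjusted p = 0.329) did not pass.

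Adding Dex to IL27 changed fewer members. It lowered 29 and raised 1, beside 14.3% and 11.7% of all genes, with a median of -0.36 beside 0.0029 over all genes. The member that rose was Prim2, the large subunit of primase, which measured 49.3, 46.8 and 43.2 CPM in Ctrl, 26.2, 32 and 24.5 CPM with Dex, 24.2, 20.3 and 19.9 CPM with IL27 and 25.3, 29.7 and 28.8 CPM with Dex+IL27. Its Dex+IL27 libraries lay above all IL27 libraries and overlapped those of Dex, with a log2 fold change of 0.41 ± 0.12 (adjusted p = 0.0191) against IL27. This rise did not pass the test in 4 of 17 alternative fits, each with 1 library left out. Prim2 still fell against Ctrl, at -0.78 ± 0.11 with Dex, -1.15 ± 0.12 with IL27 and -0.74 ± 0.11 with Dex+IL27.

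The lowest by role in the comparison of Dex+IL27 with IL27 were Cdc6 (-1.13 ± 0.099), Mcm10 (-0.60 ± 0.18), Pole (-0.75 ± 0.096), Rfc3 (-0.63 ± 0.075), Rpa1 (-0.31 ± 0.074), Fen1 (-0.68 ± 0.10), Chaf1b (-0.78 ± 0.11) and Exo1 (-0.86 ± 0.13). Cdc6 was the 1 member at least 2-fold lower, beside 2.46% of all genes. Pcna changed by -0.61 ± 0.073, Mcm5 by -0.56 ± 0.077, Gmnn by -0.29 ± 0.086, 2810417H13Rik by -0.59 ± 0.082 and Dnmt1 by -0.28 ± 0.071. Rfc1 (-0.067 ± 0.12), Cdt1 (0.10 ± 0.12), Chek1 (-0.21 ± 0.15), E2f1 (-0.071 ± 0.15), E2f2 (0.30 ± 0.13) and Slbp (0.026 ± 0.087) did not pass the test, nor did the highest of their roles Gins3 (0.18 ± 0.13), Rpa2 (0.0086 ± 0.075), Lig1 (-0.11 ± 0.08) and Hells (0.16 ± 0.087).

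The interaction asks whether the effect of both agents together equals the sum of their single effects on the log2 scale. For members that fell with each agent, a positive value means that the fall with Dex+IL27 was smaller than that sum. It passed the test with a positive value for 26 members and with a negative value for 1, beside 13.7% and 14.7% of all genes, with a median of 0.39 beside -0.023 over all genes. Of the licensing genes 9 of 10 passed with a positive value, of RPA 3 of 3, of flap and nick processing 2 of 2, of chromatin assembly 3 of 5, of the clamp and loader 3 of 7, of the polymerases 3 of 8, of repair and checkpoint 2 of 7 and of helicase activation 0 of 5. Prim2 had the highest value at 1.19 ± 0.16 (adjusted p = 0.000146), followed by 2810417H13Rik at 1.00 ± 0.11 (adjusted p = 2.93e-05) and Cdt1 at 0.90 ± 0.17 (adjusted p = 0.00151). The 1 negative value that passed the test was that of Pole, which measured 47.1, 45.8 and 41.3 CPM in Ctrl, 36.8, 37.9 and 38.2 CPM with Dex, 24.3, 27.8 and 27.6 CPM with IL27 and 16.2, 16.4 and 14.1 CPM with Dex+IL27. The 4 groups of Pole did not overlap, and its value of -0.47 ± 0.13 (adjusted p = 0.0158) means a fall with both agents larger than the sum of its single falls. The extremes by role that did not pass were Mcm2 (0.25 ± 0.17), Gins1 (0.70 ± 0.31), Gins4 (0.27 ± 0.12), Rfc3 (0.13 ± 0.11), Brca2 (-0.18 ± 0.21) and E2f1 (-0.072 ± 0.22), and Rfc1 (0.38 ± 0.16) and E2f2 (0.042 ± 0.19) did not pass either.

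At day 3 the same 10 nM Dex gave small rises in WT cells. Of the 50 members 8 rose and none fell, beside 4.93% and 4.5% of the 11967 genes tested, and the median log2 fold change was 0.15 beside 0.0064 over all genes. The 8 were Brca2 (0.60 ± 0.13, adjusted p = 0.0059), Chaf1a (0.55 ± 0.11, adjusted p = 0.00245), Cdt1 (0.38 ± 0.11, adjusted p = 0.046), Pole (0.32 ± 0.083, adjusted p = 0.0197), Lig1 (0.30 ± 0.083, adjusted p = 0.0279), Mcm7 (0.30 ± 0.088, adjusted p = 0.0426), Rpa2 (0.28 ± 0.07, adjusted p = 0.0141) and Rfc2 (0.21 ± 0.054, adjusted p = 0.0206). Between 2 and 4 members passed the test when any 1 of the 6 libraries was left out. The summed level of the members was 6088, 6141 and 6168 CPM in the Ctrl libraries and 6863, 6708 and 6656 CPM with Dex. The sums did not overlap, and the mean with Dex was 109.9% of that in Ctrl.

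Cdt1 measured 59.8, 70.5 and 65.4 CPM without and 86.4, 80.6 and 86.1 CPM with Dex at day 3, without overlap. Chaf1a, a subunit of CAF-1, measured 34.5, 41.9 and 49.4 CPM without and 66.2, 54.7 and 62.1 CPM with Dex, also without overlap. In all, 25 members had all 3 Dex libraries above all 3 Ctrl libraries, beside 14.5% of all genes, 3 had them all below, beside 15.3%, and 22 overlapped. Cdc6 measured 57.1, 60.8 and 61.1 CPM without and 64.2, 62 and 62.3 CPM with Dex (0.081 ± 0.14, adjusted p = 0.785), and Pcna measured 199, 215 and 218 CPM without and 217, 221 and 218 CPM with Dex (0.058 ± 0.078, adjusted p = 0.712). Neither passed the test, and the 2 groups overlapped for Pcna and not for Cdc6.

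Of the other genes followed throughout, Mcm5 (0.19 ± 0.093), Gmnn (0.0068 ± 0.072), Rfc1 (0.064 ± 0.073), Dnmt1 (0.17 ± 0.082), Chek1 (0.21 ± 0.10), E2f1 (0.14 ± 0.18), E2f2 (-0.11 ± 0.11), Slbp (0.048 ± 0.082) and 2810417H13Rik (0.21 ± 0.092) did not pass the test with Dex at day 3. The lowest values by role were those of Orc6 (-0.081), Gins1 (0.085), Pold2 (-0.083), Pcna, Rpa3 (-0.18), Fen1 (0.21), Hells (0.045), Tipin (-0.12) and E2f2, and the highest value in helicase activation was that of Gins4 (0.18). None of these passed the test.

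In cKO cells Dex changed none of the 50 members at day 3, where 0% of all genes passed edgeR's test. At an unadjusted p under 0.05 were 399 of the 11967 genes and 1 member, Pole2 (-0.27 ± 0.12, adjusted p = 1), and DESeq2 and limma also called 0 members. The median log2 fold change of the members was -0.034 beside 0.00064 over all genes. Over the genes followed throughout, the values ran from -0.19 ± 0.14 for Cdc6 to 0.28 ± 0.17 for E2f1. Between these lay Pcna (-0.044), Mcm5 (-0.012), Cdt1 (-0.051), Gmnn (-0.011), Rfc1 (-0.028), Dnmt1 (-0.0078), Chek1 (-0.083), E2f2 (0.065), Slbp (-0.034) and 2810417H13Rik (-0.091). The other extremes by role were Mcm6 (0.011), Gins3 (0.10), Mcm10 (-0.11), Pold1 (0.041), Rfc4 (0.077), Rpa1 (0.043), Rpa3 (-0.15), Fen1 (-0.0088), Lig1 (-0.023), Hells (0.041), Chaf1a (-0.11), Brca1 (0.018) and Brca2 (-0.17).

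The cKO libraries with Dex spread widely in these genes. The members summed to 5491, 5983 and 6997 CPM in replicates 4, 5 and 6 of cKO Dex and to 5943, 6146 and 6759 CPM in replicates 4, 5 and 6 of cKO Ctrl. Replicate 6 was the highest in both groups, and in cKO Dex it lay above all WT libraries of day 3. Cdc6 measured 39.2, 55.6 and 72.7 CPM in the 3 cKO Dex libraries beside 56.5, 66.8 and 67.4 CPM in cKO Ctrl.

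**Figure D4:**
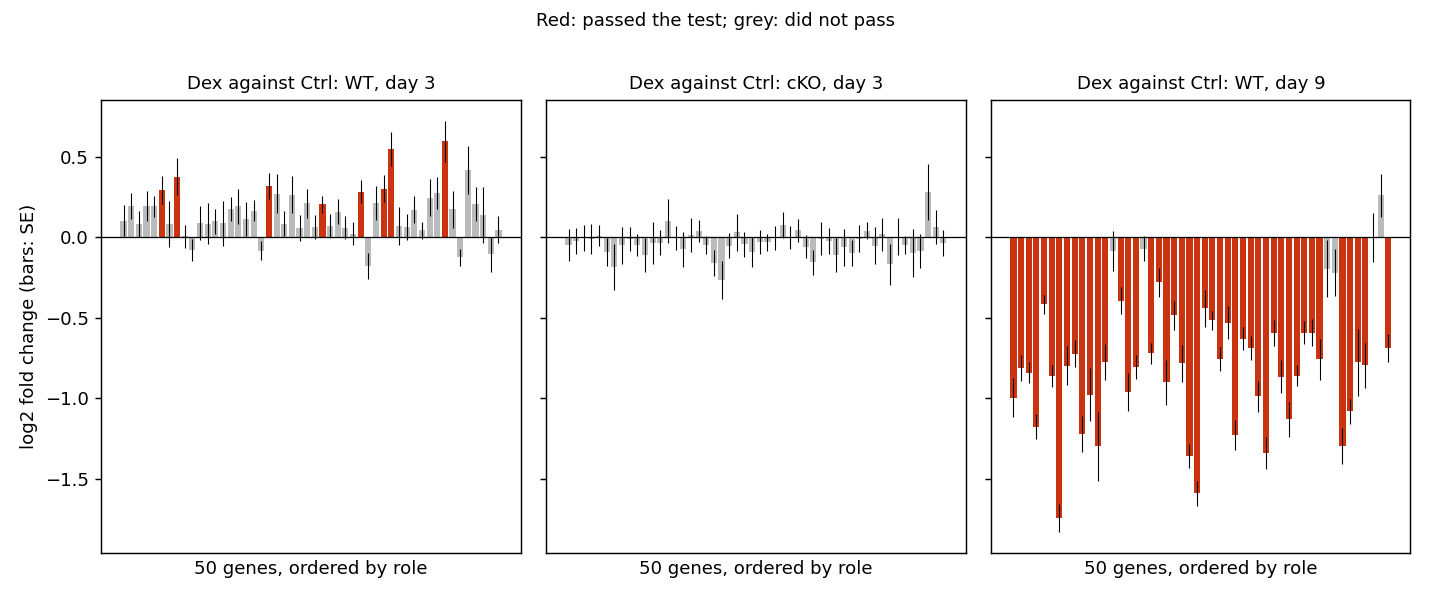
Log2 fold change with Dex (vertical axis, lines are SE) of the 50 members in the order of their roles, in WT cells at day 3, cKO cells at day 3 and WT cells at day 9; red bars passed the test and grey bars did not. The panels hold 8, 0 and 44 red bars, those of day 3 above 0 and those of day 9 below 0.

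The interaction of genotype and Dex, the change with Dex in WT minus that in cKO cells, passed the test for 3 members with positive values, beside 1.57% of all genes. They were Brca2 (0.76 ± 0.18, adjusted p = 0.0247), Chaf1a (0.66 ± 0.15, adjusted p = 0.0204) and Pole (0.48 ± 0.12, adjusted p = 0.0322), 3 genes that rose with Dex in WT cells. In WT cells Pole measured 49.1, 49 and 48.7 CPM without Dex and 58.1, 59.8 and 64.5 CPM with it. In cKO cells it measured 49, 54.6 and 59.4 CPM without Dex and 43.8, 52 and 50.2 CPM with it. The WT Dex libraries of Pole lay above WT Ctrl, while the cKO groups overlapped. For Chaf1a the cKO Ctrl libraries, at 51.8, 54.3 and 60.03 CPM, lay above all WT Ctrl libraries (34.5, 41.9 and 49.4 CPM) and overlapped WT Dex. The same WT Ctrl libraries enter both the rise with Dex in WT cells and this interaction. Without cKO Dex replicate 6, 13 members passed, all with positive values, and leaving out other single libraries gave 0 to 3.

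The other extremes by role in this interaction were Cdt1 (0.43 ± 0.16), Orc6 (-0.031 ± 0.097), Mcm10 (0.20 ± 0.15), Gins3 (-0.017 ± 0.20), Pole2 (0.54 ± 0.17), Pold2 (-0.034 ± 0.081), 2810417H13Rik (0.30 ± 0.13), Rfc5 (0.059 ± 0.10), Rpa2 (0.34 ± 0.099), Rpa3 (-0.024 ± 0.11), Lig1 (0.32 ± 0.12), Fen1 (0.22 ± 0.15), Hells (0.0043 ± 0.075), Tipin (-0.077 ± 0.078), Slbp (0.082 ± 0.12) and E2f2 (-0.17 ± 0.15). None of these passed the test, nor did Pcna (0.10), Mcm5 (0.21), Cdc6 (0.27), Gmnn (0.017), Rfc1 (0.092), Dnmt1 (0.18), Chek1 (0.29) and E2f1 (-0.14).

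Without Dex, 2 members were lower and 1 was higher in cKO than in WT cells, beside 0.986% and 1.38% of all genes. Brca1 measured 25.4, 26.5 and 27.4 CPM in WT Ctrl and 20.1, 17.1 and 20.03 CPM in cKO Ctrl, and Hells measured 131, 129 and 134 CPM in WT Ctrl and 111, 109 and 120.3 CPM in cKO Ctrl. The groups of both genes did not overlap, with log2 fold changes of -0.47 ± 0.10 (adjusted p = 0.0248) for Brca1 and -0.21 ± 0.053 (adjusted p = 0.0469) for Hells. In WT cells Brca2 measured 12.1, 14.4 and 17.1 CPM without Dex and 21.7, 22 and 21.9 CPM with it. In cKO cells it measured 18.7, 22 and 25.2 CPM without Dex and 20.04, 19.1 and 19.5 CPM with it. The WT Ctrl libraries of Brca2 lay below the other 3 groups, which gave the higher value of 0.60 ± 0.13 (adjusted p = 0.022) in cKO Ctrl. Leaving out any 1 library of these 6 left 0 to 2 members that passed.

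Of the genes followed throughout, none passed the test between cKO and WT cells without Dex. Their values were Pcna 0.032, Mcm5 0.056, Cdc6 0.096, Cdt1 0.18, Gmnn -0.044, Rfc1 -0.0083, Dnmt1 0.025, Chek1 -0.15, E2f1 0.07, E2f2 0.16, Slbp -0.052 and 2810417H13Rik 0.048. The other extremes by role were Mcm7 (0.19), Orc6 (-0.14), Gins3 (0.12), Gins1 (-0.13), Pole (0.15), Prim2 (-0.12), Rfc2 (0.18), Rfc4 (-0.10), Rpa2 (0.11), Rpa1 (0.033), Lig1 (0.16), Fen1 (0.045) and Chaf1a (0.41 ± 0.11), and none of these passed the test.

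With Dex, 5 members were lower in cKO than in WT cells and none was higher, beside 3.28% and 3.63% of all genes. They were Brca1 (-0.72 ± 0.10, adjusted p = 0.000157), Chek1 (-0.44 ± 0.10, adjusted p = 0.0158), Pole2 (-0.42 ± 0.12, adjusted p = 0.0432), Pole (-0.32 ± 0.082, adjusted p = 0.0232) and Hells (-0.21 ± 0.053, adjusted p = 0.0199). Brca1 measured 31.2, 31.2 and 33.1 CPM in WT Dex and 17.8, 18.2 and 21.9 CPM in cKO Dex, and Chek1 measured 62.2, 59.6 and 62.1 CPM in WT Dex and 37.8, 46.9 and 51.3 CPM in cKO Dex. The groups of neither gene overlapped. Without cKO Dex replicate 6, 25 members were lower and none was higher, and leaving out other single libraries gave 1 to 3.

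Of the other genes followed, Pcna (-0.07), Mcm5 (-0.15), Cdc6 (-0.17), Cdt1 (-0.25), Gmnn (-0.062), Rfc1 (-0.10), Dnmt1 (-0.16), E2f1 (0.21), E2f2 (0.33 ± 0.11), Slbp (-0.13) and 2810417H13Rik (-0.25 ± 0.092) did not pass this test. Neither did the other extremes by role, Gins3 (0.14), Mcm10 (-0.31 ± 0.11), Pold2 (0.088), Rfc3 (-0.019), Rpa3 (0.061), Rpa2 (-0.23 ± 0.069), Lig1 (-0.17), Fen1 (-0.18), Uhrf1 (-0.093), Chaf1a (-0.25 ± 0.10) and Tipin (-0.051). At day 3 the share of Rn45s in WT cells was 11.1% ± 0.566 (SD, n = 3) without and 12.4% ± 0.447 with Dex, and in cKO cells 12.8% ± 0.285 without and 12.5% ± 0.792 with Dex. The myeloid markers summed to 17.9 to 21.3, 16.8 to 20.02, 19.5 to 29.0 and 20.4 to 30.2 CPM in the same order. Of the CD8 T cell markers, Cd8a (0.40), Cd8b1 (0.28) and Cd3d (0.21) were higher in cKO than in WT cells with Dex. Without Dex, Cd3e (0.32) was higher in cKO cells. The part of these measures in the differences between genotypes was not tested.

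**Figure D5:**
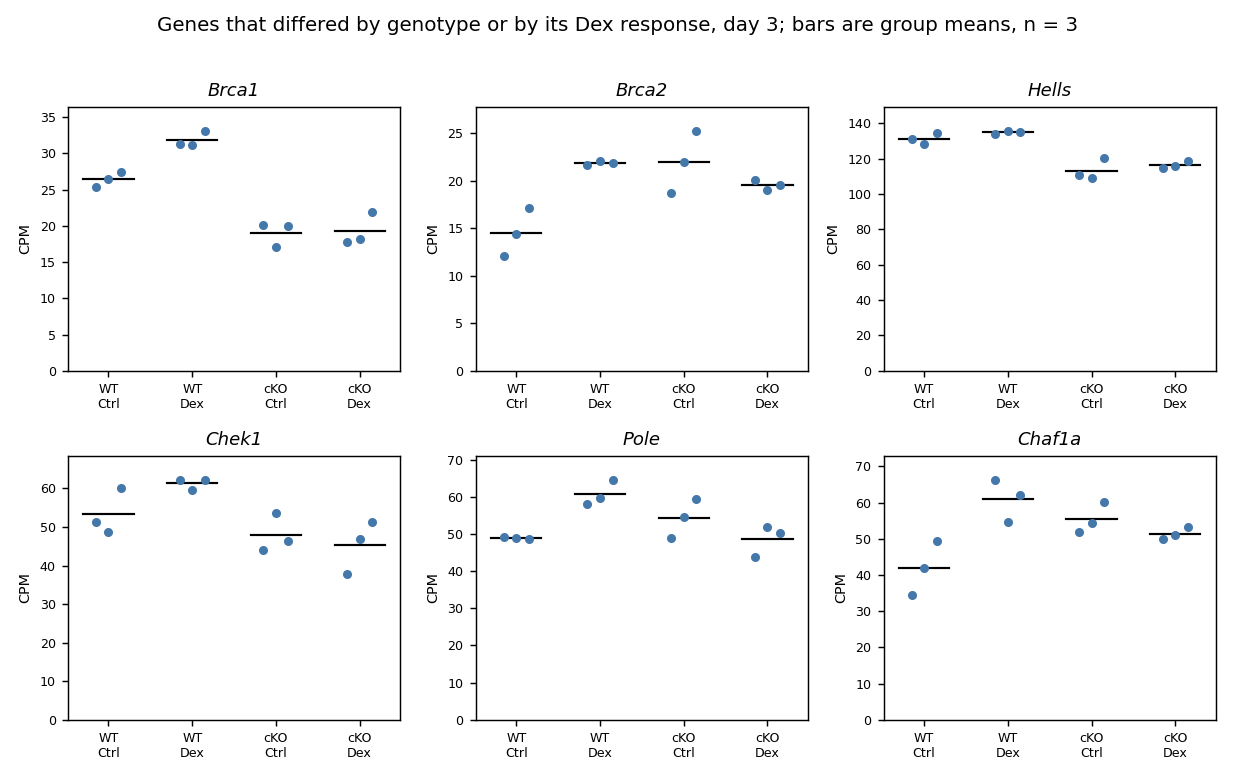
Levels as CPM (vertical axes, linear from 0) of the 6 members shown for the comparisons of genotypes, in the 12 libraries of day 3; points are libraries and bars are group means (n = 3). Brca1 and Hells lie lower in both cKO groups, Chek1 lies lower in cKO Dex than in WT Dex, and Brca2, Pole and Chaf1a lie higher with Dex than without it in WT cells and overlap in cKO cells.

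The Dex response of WT cells differed between the 2 days for 45 of the 50 members, all with a lower value at day 9, beside 19.2% of the 12666 genes tested. It was at least 2-fold lower for 19 members, beside 4.17% of all genes. The median difference, day 9 minus day 3, was -0.89 on the log2 scale beside 0.054 over all genes. It was lowest for Cdc6 (-1.79 ± 0.18, adjusted p = 5.39e-08) and 2810417H13Rik (-1.77 ± 0.13, adjusted p = 8.39e-10), and by role for Gins1 (-1.35 ± 0.24), Pole2 (-1.14 ± 0.18), Rpa2 (-0.94 ± 0.099), Fen1 (-1.52 ± 0.15), Chaf1a (-1.38 ± 0.16), Exo1 (-1.44 ± 0.16) and Slbp (-0.70 ± 0.12). Of the other genes followed, Pcna had -1.38 ± 0.11, Mcm5 -1.34 ± 0.13, Cdt1 -1.14 ± 0.18, Gmnn -0.70 ± 0.11, Rfc1 -0.47 ± 0.14, Dnmt1 -0.73 ± 0.12 and Chek1 -0.97 ± 0.18. The 5 members that did not pass were Gins3 (-0.14 ± 0.19), Pold1 (-0.20 ± 0.11), Brca1 (-0.43 ± 0.21), E2f1 (-0.11 ± 0.23) and E2f2 (0.40 ± 0.17), each the highest of its role except E2f1. Day ran together with the letter that opens the sample titles, D or E, and with rest and restimulation, so these cannot be told apart.

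Untreated WT cells had 18 members higher and 3 lower at day 9 than at day 3, beside 24.3% and 24.1% of all genes, and the median log2 fold change was 0.15 beside -0.01 over all genes. The largest rise was that of Rfc3 (0.98 ± 0.075, adjusted p = 1.48e-10), which measured 70.2, 72.5 and 71.5 CPM in WT Ctrl at day 3. The Ctrl libraries of the 2 days did not overlap for Rfc3. The 3 that fell were Rfc4 (-0.64 ± 0.093, adjusted p = 3.62e-06), Pold1 (-0.49 ± 0.077, adjusted p = 1.36e-05) and Chek1 (-0.36 ± 0.13, adjusted p = 0.0194). Other rises were those of Chaf1a (0.83 ± 0.11), Exo1 (0.65 ± 0.11), Cdc6 (0.64 ± 0.13), 2810417H13Rik (0.58 ± 0.092), Fen1 (0.53 ± 0.11), E2f1 (0.50 ± 0.16), Pcna (0.45 ± 0.078), Gins3 (0.35 ± 0.13) and Rpa3 (0.28 ± 0.086).

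The members that did not pass this test among those followed were Mcm5 (0.14 ± 0.091), Cdt1 (0.21 ± 0.12), Gmnn (-0.032 ± 0.078), Rfc1 (-0.063 ± 0.1), Dnmt1 (0.038 ± 0.081), E2f2 (0.041 ± 0.12) and Slbp (0.18 ± 0.088). Among the extremes by role, Pola2 (0.28 ± 0.096) and Rpa2 (0.20 ± 0.07) rose, while Mcm10 (-0.073 ± 0.14), Hells (-0.082 ± 0.069) and Lig1 (-0.019 ± 0.085) did not pass. In all, 27 members had all 3 Ctrl libraries of day 9 above those of day 3, beside 28.8% of all genes, and 6 had them below, beside 29.2%. Between the same groups the share of Rn45s was 11.1% at day 3 and 9.11% at day 9, Cd68 (-1.15), Zbtb46 (-1.59), Cd79b (-0.97) and Foxp3 (-2.97) fell, and Cd40lg (3.85) and Klrb1c (4.31) rose on the log2 scale. Klrb1c lay near the floor, as the 2 natural killer cell markers together reached at most 0.067 CPM in WT Ctrl at day 3 and 0.79 CPM at day 9. Of the CD8 T cell markers, Cd8b1 (-0.31) fell, and Cd3e (0.32) and Cd3g (0.29) rose from day 3 to day 9. The part of these measures in the difference between days was not tested.

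Within the clamp loader the 2 small subunits Rfc3 and Rfc5 drew apart. In FPKM the ratio of Rfc3 to Rfc5 was 1.05 ± 0.013 (SD, n = 3) in WT Ctrl at day 3 and 1.81 ± 0.0175 in Ctrl at day 9. It was 2.53 ± 0.192 with Dex, 4.23 ± 0.612 with IL27 and 3.89 ± 0.709 with Dex+IL27 at day 9. The IL27 and Dex+IL27 libraries overlapped in this ratio, which was also chosen after the values had been seen.

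The wider replication and repair pathway was read from 64 further genes, all of them tested. At day 9, 44 of them fell and 2 rose with Dex, 52 fell and 2 rose with IL27, and 51 fell and 2 rose with Dex+IL27, with medians of -0.51, -0.82 and -0.90. Of all genes tested, 27.4%, 28.1% and 32.6% fell and 28.2%, 29.3% and 34.3% rose in the same order. The 2 further genes that rose were the same in all 3 comparisons. Pold4, the smallest subunit of polymerase delta, rose by 1.77 ± 0.10 (adjusted p = 8.4e-09), 1.95 ± 0.10 (adjusted p = 4.79e-09) and 2.26 ± 0.11 (adjusted p = 3.22e-10). Atr, the kinase upstream of Chek1, rose by 0.61 ± 0.14 (adjusted p = 0.00158), 0.87 ± 0.14 (adjusted p = 7.34e-05) and 1.03 ± 0.14 (adjusted p = 9.12e-06). Pold4 and the catalytic subunit Pold1, which fell with IL27 and with Dex+IL27, thus went in opposite directions there.

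The lowest of these further genes with Dex were Dna2, a nuclease of Okazaki fragments (-1.76 ± 0.16), and Dscc1, of an alternative clamp loader (-1.63 ± 0.22). With IL27 they were Dscc1 (-2.19 ± 0.23) and Dna2 (-2.06 ± 0.16), and with Dex+IL27 Orc1, of the origin recognition complex (-3.15 ± 0.23), and Dna2 (-2.83 ± 0.17). Between Dex+IL27 and Dex 35 fell, led by Orc1 (-1.86 ± 0.23) and E2f8 (-1.58 ± 0.22), a repressor of the E2F family, and 2 rose, Pold4 (0.49 ± 0.098) and Atr (0.41 ± 0.13). Between Dex+IL27 and IL27 19 fell, led by Orc1 (-1.28 ± 0.24) and Recql4 (-0.99 ± 0.29), and 3 rose, with Pold4 (0.31 ± 0.097) and Mcmbp (0.28 ± 0.077) highest. Of all genes, 17.1% fell and 14.9% rose between Dex+IL27 and Dex, and 14.3% and 11.7% between Dex+IL27 and IL27.

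At day 3, 2 of the 64 rose with Dex in WT cells, Donson (1.12 ± 0.27, adjusted p = 0.0117) and Chtf18 (0.47 ± 0.094, adjusted p = 0.00347), and 2 fell, Polb (-0.31 ± 0.072, adjusted p = 0.0106) and Orc4 (-0.26 ± 0.072, adjusted p = 0.0279). Donson and Chtf18 were also the 2 that were higher in cKO than in WT cells without Dex, at 1.43 ± 0.26 and 0.42 ± 0.094, beside 1.38% of all genes. Both comparisons share the WT Ctrl libraries. In cKO cells no gene tested passed for Dex, as given above. With Dex, 2 of the 64 were lower in cKO than in WT cells, Orc1 (-0.57 ± 0.14) and Palb2 (-0.41 ± 0.11), beside 3.28% of all genes. Between untreated cells of day 9 and day 3, 17 of the 64 were higher, led by E2f8 (1.02 ± 0.21) and Dna2 (0.79 ± 0.15), and 10 were lower, led by Atr (-1.06 ± 0.13) and Asf1a (-0.88 ± 0.20), beside 24.3% and 24.1% of all genes. The rises and falls with Dex at day 3 stand beside 4.93% and 4.5% of all genes.

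Other lists of the dividing cell were set beside the members at day 9. Of 32 mitosis genes 16 fell and 2 rose with Dex, 31 fell with IL27 and 28 fell with Dex+IL27, with medians of -0.26, -0.999 and -1.02. Against IL27 alone, Dex+IL27 lowered 1 of the 32 mitosis genes and 29 of the 50 replication genes, beside 14.3% of all genes. Against Dex alone, it lowered 31 of the 32 mitosis genes and 43 of the 50 replication genes, beside 17.1% of all genes. Of 14 genes of dNTP supply 10 fell and 3 rose in each of the 3 comparisons with Ctrl, with medians of -0.86, -0.97 and -1.21. Dex+IL27 lowered 6 of these 14 genes against IL27 alone and 8 against Dex alone, and raised 2 in each. Of the 14 tested G1 cyclins, CDKs and their inhibitors, 8 fell and 3 rose with Dex, 5 fell and 7 rose with IL27, and 9 fell and 3 rose with Dex+IL27. Over all genes tested, 27.4%, 28.1% and 32.6% fell with Dex, IL27 and Dex+IL27, and 28.2%, 29.3% and 34.3% rose. The counts of the lists are descriptions, and no test compared one list with another.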

How the data were processed

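RNA from 1000 sorted cells per library was sequenced in 24 libraries. The authors deposited 2 values per gene and library, estimated counts that need not be whole and FPKM, which is scaled by gene length and library depth. TopHat, RSEM, DESeq and the mm9 build are named in the submitters' processing notes, with no versions, and the strand used in counting is not given in the sources used here, so overlapping genes on opposite strands cannot be told apart. The members, their roles and the lists set beside them were chosen with earlier results of these data known.

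The deposited estimated counts were rounded and tested with edgeR 4.0.16 in R 4.3.3 (TMM scaling, filterByExpr with a minimum count of 10 and total of 15, prior count 0.125), by the two-sided quasi-likelihood F test with Benjamini-Hochberg adjustment over all genes tested. Each day was fitted over its 12 libraries, and the 2 comparisons between days over all 24. An SE is the size of the log2 fold change divided by the square root of F. Levels of a gene are CPM, and levels between genes are the authors' FPKM. Named genes were, in each comparison, the highest and lowest member of each role, members whose call went against the majority, and 12 genes followed throughout. Alternatives used DESeq2 1.42.0, limma 3.58.1 on log2(FPKM + 1) or log2(FPKM + 0.1), other scalings and filters, a replicate block, and leaving out each library. The scripts were tested on simulated counts. Replicate pairs of a group differed by 4.48 to 28.9 chi-square units per gene over 24 pairs, so no 2 libraries agreed within sampling noise. Promoter letters were searched in RefSeq windows of GRCm38.p6, which is not the build of the counts, and matched by gene name.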

Additional observations from a re-analysis of the deposited data

Results flagged for a closer look

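Results are listed here where a test of the difference between 2 responses passed at an adjusted p under 0.05 (edgeR), with values on the log2 scale. The response to Dex at day 3 differed between WT and cKO cells for 3 members, Brca2 (0.76), Chaf1a (0.66) and Pole (0.48), and for Chtf18 (0.69) among the further replication genes. Each was positive, a higher Dex change in WT than in cKO cells. The count of 3 moved with single libraries, as given in the report. Of 22 alternatives the value of Pole did not pass in 12, that of Brca2 in 10 and that of Chaf1a in 6.

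The response to Dex at day 9 differed with and without IL27 for 27 members. Among the genes named, it was positive for Prim2 (1.19), 2810417H13Rik (1.00), Cdt1 (0.90), Hells (0.76), Pcna (0.75), Rpa3 (0.75), Slbp (0.71), Fen1 (0.65), Tipin (0.63), Mcm5 (0.62), Cdc6 (0.62), Chek1 (0.58), Lig1 (0.48), Gmnn (0.44), Rpa1 (0.32) and Dnmt1 (0.31), and negative for Pole (-0.47). Of 22 alternatives the value of Chek1 did not pass in 12 and those of Rpa1 and Dnmt1 in 10 each, mostly with 1 library left out, and that of Pole did not pass in 2, both by limma. Among the further genes it was positive for Dscc1 (1.21) and Dna2 (0.99), which fell with both agents, and negative for Pold4 (-1.46), which rose with both. For Pold4 the rise with Dex+IL27 was thus smaller than the sum of its single rises.

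The response to Dex in WT cells differed between day 9 and day 3 for 45 members. It was lower at day 9 for Cdc6 (-1.79), 2810417H13Rik (-1.77), Fen1 (-1.52), Exo1 (-1.44), Pcna (-1.38), Chaf1a (-1.38), Gins1 (-1.35), Mcm5 (-1.34), Cdt1 (-1.14), Pole2 (-1.14), Chek1 (-0.97), Rpa2 (-0.94), Lig1 (-0.86), Dnmt1 (-0.73), Slbp (-0.70), Gmnn (-0.70), Rpa1 (-0.62), Hells (-0.60), Mcm6 (-0.57) and Rfc1 (-0.47). Among the further genes it was lower for Dna2 (-1.74) and E2f8 (-1.69) and higher for Pold4 (1.61) and Atr (0.69). Day, title letter and culture history cannot be told apart in these values.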

How the results depend on the processing

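The 325 called values of single genes were recomputed 5871 times under the alternatives, of which 5634 stayed past the threshold in the same direction, 237 no longer passed it, and 0 changed sign. At day 9, 43 of the 44 falls with Dex, all 48 with IL27 and all 48 calls with Dex+IL27 passed under every alternative run, as did 45 of the 45 differences in the Dex response between days. At day 3, 1 of the 8 rises with Dex in WT cells and 1 of the 5 differences between genotypes with Dex did so. It was 0 of the 3 differences between genotypes without Dex and 0 of the 3 of the interaction of genotype and Dex. At day 9, 40 of the 43 calls of Dex+IL27 against Dex and 20 of the 30 against IL27 did so. For the interaction of Dex and IL27 it was 22 of the 27, and for untreated cells between days 13 of the 21. The 8 members that rose with Dex in WT cells became 4 with library totals only, 14 with no low-count filter, 4 by limma with either pseudocount, 2 by limma with no filter, 14 with a replicate block and 18 when only the groups compared were fitted. The 3 that differed between cKO and WT cells without Dex became 5 by DESeq2, 1 in each limma fit, 1 with only the groups compared and 1 with all 24 libraries in one fit. The 5 that differed with Dex became 13 with no filter, 8 by DESeq2, 2 by limma with no filter and 3 with all 24 libraries. The 3 of the interaction of genotype and Dex became 8 with no filter, 1 by limma with either pseudocount, 0 by limma with no filter and 7 with a replicate block. The cause was not tested.

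With each library left out in turn, these 4 counts ran from 2 to 4, 0 to 2, 1 to 25 and 0 to 13, and an arm left with 2 libraries shared the spread of the other groups. The other counts ran from 43 to 44 (Dex), 48 to 49 (IL27), 48 to 49 (Dex+IL27), 41 to 43 (Dex+IL27 against Dex), 23 to 33 (Dex+IL27 against IL27), 23 to 28 (Dex by IL27), 45 to 46 (Dex between days) and 16 to 21 (untreated cells between days), and 0 members passed for Dex in cKO cells in all 6.

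Whether same-numbered libraries were paired cannot be settled with 3 libraries in a group. The summed level of the members rose from replicate 4 to 5 to 6 in cKO Ctrl and in cKO Dex alike. Over 24 same-numbered pairs within a day, the correlation of deviations from the group means ran from -0.129 to 0.199, with a median of -0.0059 and 1 pair over 0.1. With the replicate block the counts were 14 for Dex in WT cells and 0 in cKO cells at day 3, and 44, 48, 48, 43, 30 and 27 for the day 9 comparisons in the order above. They were 45 and 23 between days. The comparisons of cKO with WT cells share no numbers and could not be blocked. Library totals in place of TMM moved the median of all genes by over 0.1 for Dex+IL27 against Ctrl, from 0.05 to -0.071. Depth bears most on members of low count, such as Gins1 at 2.58 to 3.90 CPM and Exo1 at 4.78 to 6.68 CPM with Dex+IL27.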
